A study of Mus musculus with 9 samples.

Results

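The collagen chain genes described here are the genes of the deposited expression table whose symbol is Col, a number, the letter a and a number, as in Col1a1. 44 of the 26214 genes in the table met this rule, and 40 of them passed a filter on low values, which asked for a mean of at least 10 over the 8 libraries compared. By collagen class they were 11 fibrillar genes, 6 basement membrane genes, 9 FACIT genes (fibril-associated collagens with interrupted triple helices), 6 beaded filament genes, 3 short chain genes, 2 multiplexins, 4 transmembrane collagens and 3 others.

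The study set adipose stromal cells of subcutaneous fat (ASCs) beside the fibro-adipogenic progenitors (FAPs) of the quadriceps, with and without muscle injury. RNA was sequenced on Day 1 after an injection into the quadriceps. The mice were male C57Bl/6 (C57Bl/6 J in the methods) aged 8 to 12 weeks, and each library came from pooled cells of 3 animals. The groups were ASCs after NaCl injection (3 libraries), FAPs after NaCl injection (2 libraries), FAPs after Glycerol injection, called injured FAPs (3 libraries), and CD31+CD45+ cells of the quadriceps after Glycerol injection (1 library). ASCs and FAPs were isolated with magnetic beads as CD31- CD45- Sca-1+ cells, so each of their libraries is a bulk population.

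Levels are given as the normalized read count of the deposited table, which is the number of reads on a gene divided by a size factor of the library. Reads on genes numbered 27481573, 27349184 and 27402102 in ASCs, 24052508 and 24164447 in FAPs, 26968235, 26698572 and 27028114 in injured FAPs and 13091077 in CD31+CD45+ cells. At this depth 3 reads came to 2.29 in the library where a read weighs least and to 4.71 where it weighs most, and this limit, like the intervals given for single libraries, covers counting error only.

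Collagens are trimers of chains that share a long stretch of repeated glycine triplets. Fibrillar chains build the banded fibrils that give a tissue its tensile strength, type IV chains build the network of basement membranes, and FACIT chains sit on the surface of fibrils. Type VI collagen forms beaded filaments that link cells to the matrix around them, and fibroblast-like stromal cells make much of the fibrillar and type VI collagen of muscle and fat.

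The label of each group was checked against genes that mark its cells. All 6 stromal markers (Pdgfra, Ly6a, Cd34, Thy1, Dcn and Lum) were detected in every library, with a summed level of 521210, 431550 and 496958 in ASCs, 336988 and 320659 in FAPs and 173716, 173133 and 176620 in injured FAPs, against 39592 in the CD31+CD45+ library, and Dcn had the highest value of them in the 8 stromal libraries. Single markers did not all follow this sum, since Pdgfra was at 10837, 15083 and 13043 in ASCs, 17754 and 17756 in FAPs and 23649, 25268 and 23236 in injured FAPs, highest in injured FAPs and lowest in ASCs. The 8 endothelial markers summed to 506, 322 and 244 in ASCs, 3592 and 1880 in FAPs and 1153, 1326 and 918 in injured FAPs, and to 268305 in the CD31+CD45+ library. Cdh5 led except in ASCs, where Kdr or Pecam1 did. Vwf, Emcn and Cldn5 were listed at 0 in both FAP libraries, and Pecam1, which encodes CD31, at 195 and 0 in FAPs. The 8 leukocyte markers summed to 395, 364 and 348 in ASCs, 259.6 and 485 in FAPs and 459, 2053 and 391 in injured FAPs, and to 15407 in CD31+CD45+ cells. In both FAP libraries 6 of them were listed at 0 and only Cd68 and Itgam were above 0, and Cd68 or Csf1r led in all ASC and FAP libraries. Injured FAP replicate 2 stood above the other injured FAP libraries, with Lyz2 as its leading gene and Ptprc, which encodes CD45, at 11.8, 55.8 and 9.92 in the 3 injured FAP libraries. In the CD31+CD45+ library Ptprc was at 797 and Pecam1 at 45323, so both defining markers were present and the endothelial list had the larger sum.

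Collagen genes took a large share of the stromal libraries. Their summed value was 11.4%, 12.9% and 13.1% of the library in ASCs, 10.8% and 11.7% in FAPs, 5.28%, 5.62% and 5.2% in injured FAPs and 1.09% in the CD31+CD45+ library (95% Wilson interval 1.09% to 1.10%). Every injured FAP library was below every FAP and ASC library, while ASCs and FAPs overlapped, since ASC replicate 1 was below FAP replicate 2. The mean share was 5.37% in injured FAPs against 11.3% in FAPs and 12.5% in ASCs. An exact two-sided permutation test over libraries gave p = 0.1 for injured FAPs against FAPs and for injured FAPs against ASCs, which is the smallest p that these group sizes allow and cannot reach 0.05, and p = 0.3 for ASCs against FAPs. The mean share of ASCs was above that of FAPs, but without the pair of collagen genes with the highest values the difference of ASCs against FAPs was −0.48 percentage points. In bulk RNA, fewer cells of a type and less RNA per cell cannot be told apart.

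Expressed as normalized values, which also carry the size factors, the summed level was 4142868, 3981873 and 4521750 in ASCs, 2475462 and 2661909 in FAPs and 1117481, 1163225 and 1072105 in injured FAPs. On this scale the 3 groups did not overlap. ASCs were 1.64-fold above FAPs and injured FAPs were 2.30-fold below FAPs (exact two-sided permutation p = 0.1 in each case, the smallest possible).

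The make-up of this collagen signal also differed between groups. Fibrillar genes made up 85.7%, 83.4% and 85.7% of the collagen values in ASCs, 73.7% and 76.2% in FAPs and 72.2%, 75.5% and 73.2% in injured FAPs. ASCs were highest, and FAPs and injured FAPs overlapped. Col1a1, Col1a2 and Col3a1 alone took 80.7%, 77.5% and 80% in ASCs, 66.8% and 70.2% in FAPs and 63.5%, 66.6% and 63.7% in injured FAPs. The next largest class in these 8 libraries was the beaded filament class, with 8.93%, 10% and 8.96%, 13.9% and 13.5% and 14.2%, 12.1% and 13.5% in the same order of groups. In the CD31+CD45+ library basement membrane genes held 67.5% and fibrillar genes 18.6%.

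**Figure D1:**
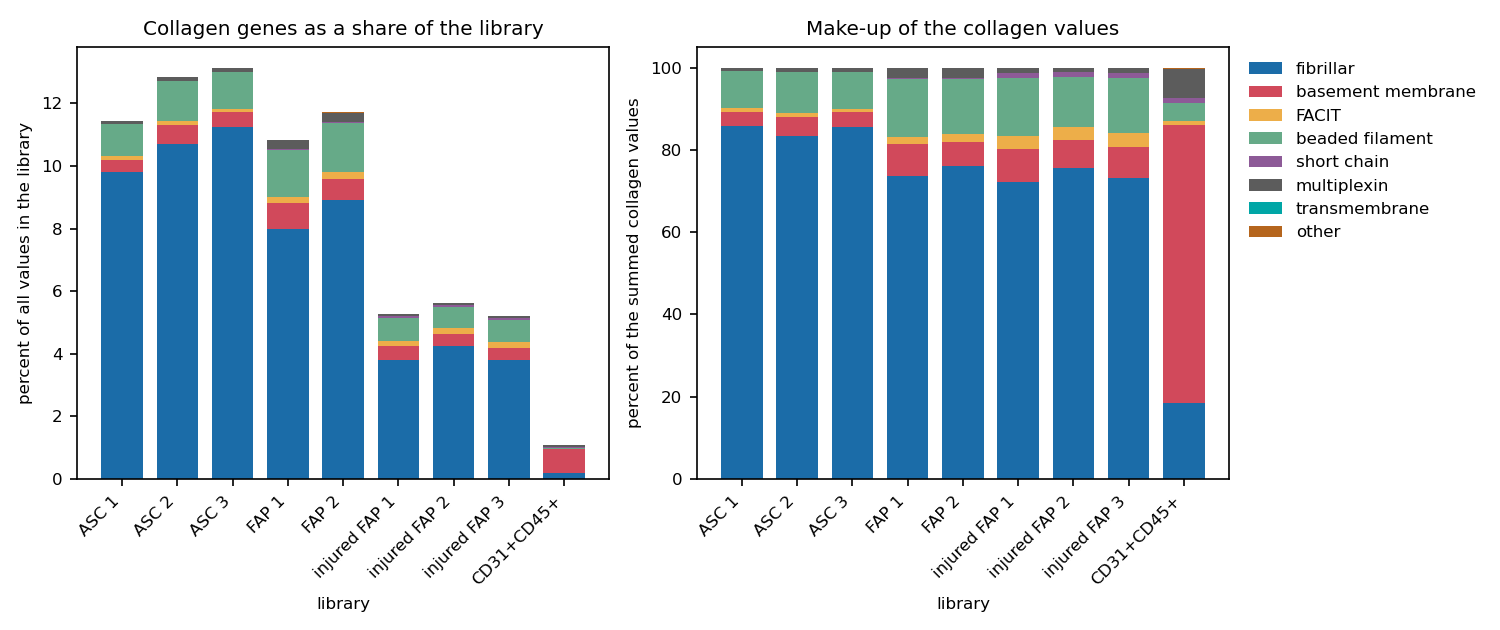
Stacked bars give, for each of the 9 libraries, the summed value of each collagen class as a percent of all values in the library (left) and as a percent of the summed collagen values (right). The 3 injured FAP libraries lie at 5.2% to 5.62% of the library, below the 5 ASC and FAP libraries at 10.8% to 13.1%, and basement membrane genes make up most of the collagen signal in the CD31+CD45+ library.

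FAPs after injury were compared with FAPs of NaCl-injected mice to see what differed in the muscle cells. Most collagen chains were lower after injury. Of the 40 genes tested, 27 fell and 2 rose, where a gene was called if its limma adjusted p lay below 0.05 and its log2 fold change past 0.58 in either direction. Over all 13601 genes tested, 27.7% were lower and 24.9% were higher. The median log2 fold change of the 40 genes was −1.10, beside −0.051 over all genes. Those lower were 6 of 6 basement membrane genes, 8 of 11 fibrillar genes, 4 of 7 FACIT genes, 4 of 6 beaded filament genes, both multiplexins, 1 of 2 short chain genes, 1 of 3 transmembrane genes and 1 of 3 others. The 2 that rose were Col8a1, a short chain collagen, and Col6a4, a beaded filament gene with low values. Col6a4 had a mean under 10 in FAPs and met the filter through the injured FAP libraries, so its rise is a description only, and with a mean of at least 50 required 1 gene was higher and 24 were lower. Scaling each library to its total gave 3 higher and 24 lower, and quantile normalization 3 higher and 21 lower. Leaving out FAP replicate 1 or FAP replicate 2 leaves 1 FAP library, and the median was then −1.22 or −1.13. Of the libraries left out in turn, FAP replicate 2 reduced the count of lower genes most. Without injured FAP replicate 2, the library with the largest leukocyte sum of its group, 2 were higher and 26 lower.

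ASCs were compared with the same FAPs to see how the stromal cells of fat and muscle differ. Col1a1, Col1a2, Col3a1, Col5a1 and Col5a2, the main fibrillar chains, were higher in ASCs, but these calls depended on the scaling and the fit. None of these chains was called under quantile normalization, which turned Col1a2 and Col5a2 to −0.12 and −0.14. On scaling to the library total Col1a1, Col1a2, Col5a1 and Col5a2 were not called. With only ASCs and FAPs in the fit Col1a1, Col1a2 and Col3a1 were not called. 8 of the 40 genes were higher in ASCs and 17 were lower, beside 23.4% higher and 23.8% lower over all genes. The 8 higher genes were Col1a1, Col1a2, Col3a1, Col5a1, Col5a2, Col4a5, Col6a5 and Col9a3. The median log2 fold change was −0.30 (0.0049 over all genes). Of the 17 lower genes 7 (Col13a1, Col17a1, Col22a1, Col24a1, Col26a1, Col2a1 and Col9a2) had a mean under 10 in ASCs and met the filter through the muscle libraries, where they were high, and 1 of the 8 higher genes (Col9a3) had a mean under 10 in FAPs and met it through ASCs, so the counts and the median are a description only. The calls of these genes are likewise a description only, wherever they are given. With a mean of at least 50 required, 32 genes were tested, 7 were higher and 12 lower, and the median was −0.073 (0.046 over all genes). Col2a1 and Col22a1 met that filter through the muscle libraries as well, so these values are a description too. When libraries were scaled to their totals, which moved the median of all genes to −0.56, 3 genes were higher and 23 were lower, and quantile normalization gave 3 and 21. With only these groups in the fit 5 genes were higher and 16 lower.

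Injured FAPs were also compared with ASCs directly. Basement membrane and most beaded filament chains were lower in injured FAPs, whereas the short chain genes tested were higher. Col4a1, Col4a2 and Col6a3 were, however, not called on scaling to the library total, and under quantile normalization they turned to 0.26, 0.30 and 0.32. In all 13 genes were higher in injured FAPs and 23 were lower, beside 25% higher and 25.8% lower over all genes, with a median of −0.90 (0.021 over all genes). The lower genes took in 6 of 6 basement membrane genes, 5 of 6 beaded filament genes and both multiplexins, with 5 fibrillar genes lower and 4 higher. Scaling to the library total, which moved the median of all genes to 0.71, gave 14 higher and 17 lower, and quantile normalization gave 14 higher and 16 lower. The same 7 genes with a mean under 10 in ASCs were among the higher ones. Col9a3, with a mean under 10 in injured FAPs, was among the lower ones, so the counts and the median are a description only. With a mean of at least 50 required, 8 were higher and 21 lower, but the 8 took in Col2a1 and Col22a1. These met that filter through the muscle libraries. This comparison shares its injured FAP and ASC libraries with the others, so the 3 comparisons are not independent.

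The stromal and leukocyte markers were read in the same fit. Of the 6 stromal markers 3 were lower in injured FAPs than in FAPs, Cd34 (−1.48), Dcn (−1.36) and Lum (−0.68, but −0.55 and not called on scaling to the library total). Ly6a, which encodes Sca-1, was higher (0.81), though not without FAP replicate 2 (0.50), and Pdgfra (0.44) and Thy1 (0.043, −0.043 under quantile normalization) did not pass. In ASCs against FAPs 3 were higher, Ly6a (1.72), Thy1 (0.83) and Cd34 (0.67), and Pdgfra was at −0.46 without a call. Under quantile normalization and on scaling to the library total Ly6a alone was called higher there, Pdgfra was called lower (−1.22 and −1.03), and Cd34 turned to −0.065 under the former. Against ASCs 5 stromal markers were lower in injured FAPs and 1, Pdgfra (0.90), was higher, while under each of these scalings 2, Cd34 and Dcn, were lower.

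Of the 8 leukocyte markers 7 were tested and Ptprc did not pass the filter. 5 of them, Lyz2, Csf1r, Adgre1, Cd52 and Tyrobp, were higher and 0 lower in injured FAPs than in FAPs, where the 5 are listed at 0. The sources used here do not say whether a filter or other step before deposit set these zeros. The 5 met the filter on low values without the FAP libraries, so their calls against FAPs are a description only. Without injured FAP replicate 2, the library with the largest leukocyte sum of its group, 5 were higher and 1, Cd68, lower. In ASCs 2, Lyz2 and Csf1r, were higher than in FAPs and 0 lower, though Cd68 was called lower on scaling to the library total (−1.56), without FAP replicate 1 (−1.44) or without injured FAP replicate 2 (−0.99) and Itgam without ASC replicate 1 (−2.99). In injured FAPs 5 were higher than in ASCs, Lyz2, Itgam, Adgre1, Cd52 and Tyrobp, and 1 lower, Csf1r (−1.43), which was not called on scaling to the library total (−0.74) or without any 1 of the 8 libraries other than injured FAP replicate 2. Itgam, Adgre1, Cd52 and Tyrobp met the filter through the injured FAP libraries, with means under 10 in ASCs. Their calls there are a description only. The part of these cells in the collagen values was not tested.

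**Figure D2:**
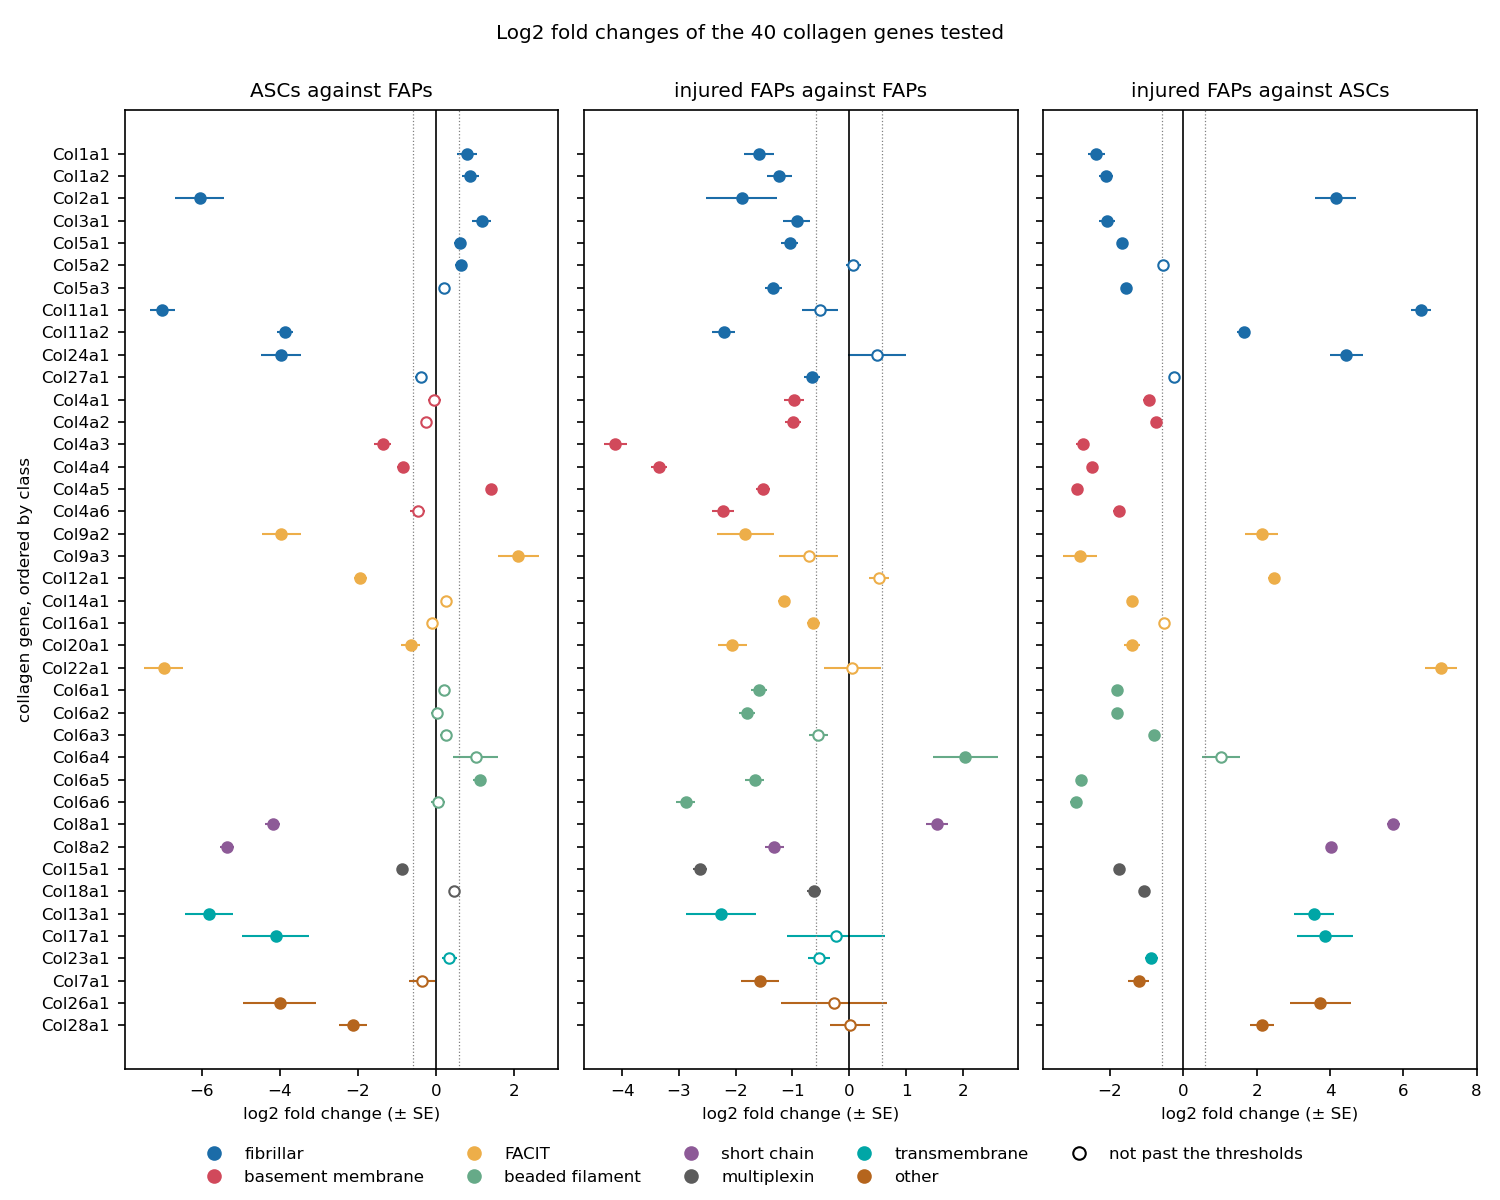
Each point is the log2 fold change of 1 of the 40 collagen genes tested, with its standard error, in the 3 comparisons (8 libraries in 1 limma fit), coloured by class, where filled points passed both thresholds, open points did not and dotted lines mark 0.58. In injured FAPs against FAPs 27 of the filled points lie on the left and 2, Col6a4 and Col8a1, on the right, while Col3a1 there turns to 0.37 under quantile normalization.

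Type I collagen, a trimer of Col1a1 and Col1a2 chains, is the main fibril of skin, tendon and fascia. The level of Col1a1 was 1554055, 1204981 and 1467588 in ASCs, 730860 and 902332 in FAPs and 275672, 292925 and 244326 in injured FAPs. Every injured FAP library was below every FAP library, and every ASC library above. Col1a1 fell 3.01-fold in injured FAPs against FAPs (log2 fold change −1.59 ± 0.26 (SE), limma adjusted p = 0.000385) and was 1.73-fold higher in ASCs than in FAPs (log2 fold change 0.79 ± 0.26 (SE), limma adjusted p = 0.0237). The fall after injury was −0.036 under quantile normalization, and injured FAPs, which were below ASCs (log2 fold change −2.37 ± 0.23 (SE), limma adjusted p = 8.96e-06), were then at −0.14 without a call. The ASC excess over FAPs was not called under quantile normalization (0.11), on scaling to the library total (0.22), without ASC replicate 1 (0.71, limma adjusted p = 0.0743), without FAP replicate 1 (0.63, limma adjusted p = 0.136), without injured FAP replicate 2 (limma adjusted p = 0.0609) or without injured FAP replicate 3 (limma adjusted p = 0.058).

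Col1a2 stood at 863916, 748914 and 932558 in ASCs, 427648 and 493337 in FAPs and 195995, 201918 and 189413 in injured FAPs. The order of the groups was the same and no groups overlapped. It fell 2.35-fold in injured FAPs against FAPs (log2 fold change −1.23 ± 0.22 (SE), limma adjusted p = 0.000675), and it was 4.33-fold lower in injured FAPs than in ASCs (log2 fold change −2.11 ± 0.20 (SE), limma adjusted p = 6.28e-06). Under quantile normalization these differences were −0.12 and 0. In ASCs Col1a2 was 1.84-fold above FAPs (log2 fold change 0.88 ± 0.22 (SE), limma adjusted p = 0.00585), with 0.31 on scaling to the library total and −0.12 under quantile normalization.

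Col3a1, whose chains form type III collagen, the partner of type I in soft, distensible tissue, was at 926328, 1132275 and 1217419 in ASCs, 495456 and 472792 in FAPs and 237506, 279893 and 249445 in injured FAPs. ASCs were again highest and injured FAPs lowest, without overlap. ASCs were above FAPs (log2 fold change 1.16 ± 0.24 (SE), limma adjusted p = 0.00186), and injured FAPs were below FAPs (log2 fold change −0.92 ± 0.24 (SE), limma adjusted p = 0.00625) and below ASCs (log2 fold change −2.09 ± 0.21 (SE), limma adjusted p = 1.19e-05). With only ASCs and FAPs in the fit, the ASC excess was not called for Col1a1 (limma adjusted p = 0.214), Col1a2 (limma adjusted p = 0.1) or Col3a1 (limma adjusted p = 0.0517). Under quantile normalization the 3 differences of Col3a1 were 0.30, 0.37 and 0.071. Col1a1, Col1a2 and Col3a1 lay among the 4 highest values of all genes in each of these 8 libraries, and quantile normalization gives genes of equal rank equal values.

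The promoters of Col1a2 and Col3a1 are shown because these chains moved in the same direction in every comparison before quantile normalization. Sequences are RefSeq windows of GRCm38.p6 from 250 bases before to 50 bases after the start used there, at chr6:4505368-4505667, plus strand and chr1:45311288-45311587, plus strand. For Col1a2 that start, at 4505618, lies downstream of the gene start at 4504814 in GENCODE M21, the source of the gene positions given here. Windows were matched for 35 of the 44 symbols, without Col12a1, Col14a1, Col1a1, Col22a1, Col26a1, Col2a1, Col4a3, Col5a2 and Col9a3. Capitals mark matches to the letters CCAAT, read ATTGG on the other strand, to TATAAA, read TTTATA there, and to GGGCGG, read CCGCCC there.
Col1a2: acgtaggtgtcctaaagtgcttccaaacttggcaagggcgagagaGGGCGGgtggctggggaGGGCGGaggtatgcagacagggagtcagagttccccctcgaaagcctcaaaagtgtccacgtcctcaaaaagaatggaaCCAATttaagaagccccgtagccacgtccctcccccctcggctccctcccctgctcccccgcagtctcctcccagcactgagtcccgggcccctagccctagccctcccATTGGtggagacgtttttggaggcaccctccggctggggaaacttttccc
Col3a1: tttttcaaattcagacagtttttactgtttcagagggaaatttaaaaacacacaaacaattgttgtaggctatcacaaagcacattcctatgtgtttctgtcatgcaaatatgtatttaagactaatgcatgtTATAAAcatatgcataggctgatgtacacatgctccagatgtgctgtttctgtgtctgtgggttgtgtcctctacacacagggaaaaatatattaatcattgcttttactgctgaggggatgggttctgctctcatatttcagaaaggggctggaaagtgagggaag
The Col1a2 window held 2 CCAAT matches, 1 of them on the opposite strand, and 2 GGGCGG matches, and was 61% G or C. The Col3a1 window held 1 TATAAA match, 117 bases before the start, and was 37.7% G or C. Of 32851 windows of this length in the mouse table, 37.4% held CCAAT, 13.6% TATAAA and 35.7% GGGCGG. Among the 38 windows of collagen genes 34.2%, 13.2% and 60.5% did. A match is a run of letters and says nothing of which factor binds.

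Type V collagen chains regulate the diameter of type I fibrils. Col5a1 was at 106959, 115886 and 136594 in ASCs, 80560 and 75672 in FAPs and 38162, 38926 and 36086 in injured FAPs, so that ASCs lay above FAPs and injured FAPs below. It fell 2.07-fold after injury (log2 fold change −1.05 ± 0.15 (SE), limma adjusted p = 0.000136), though −0.51 and not called under quantile normalization. Against ASCs it was lower in injured FAPs (log2 fold change −1.66 ± 0.13 (SE), limma adjusted p = 2.07e-06), with −0.96 on scaling to the library total and −0.52, not called, under quantile normalization. The ASC excess over FAPs was near the threshold (log2 fold change 0.61 ± 0.15 (SE), limma adjusted p = 0.00488). It was 0.51 without ASC replicate 3, 0.57 without FAP replicate 2, 0.57 in edgeR, 0.043 on scaling to the library total and 0.014 under quantile normalization, and passed in none of these.

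Col5a2 moved differently from Col5a1. Its level was 60205, 66362 and 68605 in ASCs, 43918 and 40368 in FAPs and 41111, 46140 and 45973 in injured FAPs. Injured FAPs and FAPs overlapped, and their difference did not pass (log2 fold change 0.075 ± 0.13 (SE), limma adjusted p = 0.631), nor did it under quantile normalization, where it was 0.56 and short of the fold threshold (limma adjusted p = 0.00486). ASCs were above both, and above FAPs with a call (log2 fold change 0.63 ± 0.13 (SE), limma adjusted p = 0.00208) that was lost without FAP replicate 2 (0.56), on scaling to the library total (0.058) and under quantile normalization (−0.14). Injured FAPs against ASCs fell short of the fold threshold (log2 fold change −0.55 ± 0.12 (SE), limma adjusted p = 0.00185) and passed it without ASC replicate 1 (−0.61), but the value was 0.15 on scaling to the library total and 0.70 under quantile normalization.

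Col5a3, the less widespread type V chain, was at 36484, 49468 and 48183 in ASCs, 40515 and 36210 in FAPs and 14805, 14648 and 15923 in injured FAPs. Injured FAPs were lowest (log2 fold change −1.34 ± 0.15 (SE), limma adjusted p = 2.67e-05 against FAPs), also against ASCs (log2 fold change −1.55 ± 0.13 (SE), limma adjusted p = 3.45e-06), where the value was −0.85 on scaling to the library total and −0.67 under quantile normalization, both called. ASCs and FAPs overlapped (log2 fold change 0.21 ± 0.15 (SE), limma adjusted p = 0.245), with −0.36 on scaling to the library total and −0.53 under quantile normalization.

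The remaining fibrillar genes had lower levels per kb of transcript than these chains in ASCs, FAPs and injured FAPs. Col11a1, which nucleates fibrils in cartilage, was at 27.7, 13.6 and 10.04 in ASCs, 1933 and 2360 in FAPs and 1521, 1565 and 1392 in injured FAPs. Muscle libraries lay far above ASCs, and FAPs above injured FAPs. Col11a1 was 126-fold lower in ASCs than in FAPs (log2 fold change −7.003 ± 0.32 (SE), limma adjusted p = 1.13e-07), while injured FAPs against FAPs did not pass (log2 fold change −0.52 ± 0.32 (SE), limma adjusted p = 0.173). Injured FAPs were 87.3-fold above ASCs (log2 fold change 6.49 ± 0.28 (SE), limma adjusted p = 4.76e-08).

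Col11a2, its partner chain, was at 144, 104 and 136 in ASCs, 1457 and 2340 in FAPs and 399, 381 and 416 in injured FAPs. It was lower in injured FAPs than in FAPs (log2 fold change −2.21) and lowest in ASCs. Col2a1, the main chain of cartilage fibrils, was at 10.5, 1.13 and 1.26 in ASCs, 223 and 286 in FAPs and 71.4, 58.1 and 73.2 in injured FAPs. The order of the groups was the same, and the fall after injury (log2 fold change −1.89 ± 0.63 (SE), limma adjusted p = 0.0215) was not called without FAP replicate 1 (−2.07, limma adjusted p = 0.0646), FAP replicate 2 (−1.71, limma adjusted p = 0.12) or injured FAP replicate 2 (−1.79, limma adjusted p = 0.0566). Col24a1 was at 0 in all 3 ASC libraries, at 13.3 and 15.99 in FAPs and at 18.8, 26.3 and 18.3 in injured FAPs, so that ASCs were at least 3.95-fold below FAPs against a floor of 3 reads per library. Col27a1 was at 1400, 1889 and 1827 in ASCs, 2069 and 2368 in FAPs and 1357, 1530 and 1352 in injured FAPs. FAPs were highest, and the fall in injured FAPs against FAPs (−0.65) was not called without FAP replicate 2 (−0.55) or on scaling to the library total (−0.52). Between ASCs and FAPs Col27a1 did not pass (−0.39) but was called lower in ASCs on scaling to the library total (−0.96) and under quantile normalization (−0.69).

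Tendon and cartilage markers were, like Col2a1, Col11a1, Col11a2 and Col24a1, mostly lower in ASCs than in FAPs. The 8 markers summed to 6172, 4598 and 5702 in ASCs, 151335 and 189281 in FAPs and 51749, 52813 and 43096 in injured FAPs, with Fmod leading in the muscle libraries and Sox9 in ASCs. 7 of the 8 were lower in ASCs than in FAPs and 1 higher, and 5 were lower in injured FAPs than in FAPs. Against ASCs 7 were higher in injured FAPs and 1, Sox9, lower. Scx, Mkx and Acan had means under 10 in ASCs and met the filter through the muscle libraries, so the counts that involve ASCs are a description only. Acan was at 0 in all ASC libraries and Chad at 0 in ASC replicate 1. The part of these markers in the levels of the 4 collagens was not tested.

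Among basement membrane chains, Col4a1 and Col4a2 form the network found under epithelia and around vessels, fat cells and muscle fibres. Col4a1 was at 89044, 115936 and 98095 in ASCs, 118945 and 90030 in FAPs and 56563, 51301 and 50202 in injured FAPs. ASCs and FAPs overlapped and injured FAPs lay below both. It fell 1.98-fold against FAPs (log2 fold change −0.98 ± 0.18 (SE), limma adjusted p = 0.0007), a value that was −0.42 and no longer called under quantile normalization. It was also below ASCs (log2 fold change −0.93 ± 0.16 (SE), limma adjusted p = 0.000407), but −0.23 on scaling to the library total and 0.26 under quantile normalization, neither called. ASCs against FAPs did not pass (log2 fold change −0.043 ± 0.18 (SE), limma adjusted p = 0.847) and gave 0.043 without ASC replicate 1 and 0.16 without FAP replicate 1.

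Col4a2 stood at 45308, 57207 and 48169 in ASCs, 64837 and 54305 in FAPs and 31342, 29226 and 28792 in injured FAPs. As for Col4a1, the injured FAP libraries were the lowest and the other groups overlapped. Col4a2 fell after injury (log2 fold change −0.995 ± 0.14 (SE), limma adjusted p = 0.000168), or −0.55 and not called under quantile normalization. For injured FAPs against ASCs the call (log2 fold change −0.75 ± 0.13 (SE), limma adjusted p = 0.000483) was lost on scaling to the library total (−0.049) and under quantile normalization (0.30). Between ASCs and FAPs the test did not pass (log2 fold change −0.25 ± 0.14 (SE), limma adjusted p = 0.162), but Col4a1 and Col4a2 were both called lower in ASCs on scaling to the library total (−0.61 and −0.81) and under quantile normalization (−0.68 and −0.85).

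The genes of this pair lie head to head on chromosome 8, and their annotated starts overlap by 22 bases. Their promoter windows are shown because the ratio of the chains varied little between groups. The windows lie at chr8:11312777-11313076, minus strand and chr8:11312555-11312854, plus strand, share 78 bases and are each printed in the direction of their gene, with the same source and capitals as for Col1a2.
Col4a1: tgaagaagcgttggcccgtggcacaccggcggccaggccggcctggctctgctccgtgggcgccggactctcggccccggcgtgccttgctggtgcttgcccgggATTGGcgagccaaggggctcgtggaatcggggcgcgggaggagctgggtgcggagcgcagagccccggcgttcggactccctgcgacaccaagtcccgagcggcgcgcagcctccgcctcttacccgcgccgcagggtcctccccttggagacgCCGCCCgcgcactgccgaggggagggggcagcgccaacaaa
Col4a2: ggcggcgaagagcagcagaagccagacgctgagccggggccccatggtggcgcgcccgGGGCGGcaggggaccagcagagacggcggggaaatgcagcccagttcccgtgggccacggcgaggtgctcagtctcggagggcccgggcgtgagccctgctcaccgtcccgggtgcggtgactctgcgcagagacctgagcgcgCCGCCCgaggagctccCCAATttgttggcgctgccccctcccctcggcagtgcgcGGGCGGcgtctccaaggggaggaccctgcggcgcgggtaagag
Both are rich in G and C (74% and 73.7%, where the median of all windows was 52.7%), and neither held TATAAA. Col4a1 had 1 CCAAT match, 145 bases before the start and on the opposite strand, and Col4a2 had 1, 32 bases before. The GGGCGG match after the start of Col4a1 and the match after the start of Col4a2 are the same run of bases. Per kb of the longest coding transcript, the ratio of Col4a1 to Col4a2 was 1.92, 1.98 and 1.99 in ASCs, 1.79 and 1.62 in FAPs and 1.76, 1.71 and 1.70 in injured FAPs, and 1.60 in CD31+CD45+ cells. ASCs were slightly above the other libraries, which overlapped.

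Col4a3 and Col4a4, chains of the specialized basement membranes of kidney, lung and inner ear, showed the largest falls in injured FAPs against FAPs among called collagens with a mean of at least 100. The level of Col4a3 was 779.9, 699 and 894 in ASCs, 1847 and 2247 in FAPs and 112, 90.7 and 154 in injured FAPs. FAPs were highest, ASCs lay between and injured FAPs were lowest, without overlap. It was 17.2-fold lower in injured FAPs (log2 fold change −4.12 ± 0.21 (SE), limma adjusted p = 3.43e-07) and 2.59-fold lower in ASCs (log2 fold change −1.37 ± 0.21 (SE), limma adjusted p = 0.00027), both against FAPs. Injured FAPs were 6.65-fold below ASCs (log2 fold change −2.75 ± 0.19 (SE), limma adjusted p = 6.67e-07).

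Levels of Col4a4 were 1066, 928 and 1280 in ASCs, 1904 and 2013 in FAPs and 192, 183 and 200.6 in injured FAPs, in the same order. The fall after injury was 10.2-fold (log2 fold change −3.34 ± 0.14 (SE), limma adjusted p = 1.88e-07). ASCs were lower than FAPs (log2 fold change −0.86 ± 0.14 (SE), limma adjusted p = 0.000428, with −1.42 on scaling to the library total), and injured FAPs were 5.69-fold below ASCs (log2 fold change −2.49 ± 0.12 (SE), limma adjusted p = 1e-07). Col4a3 and Col4a4 are also head to head, on chromosome 1, with 71 bases between them.

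Col4a5 and Col4a6, the X-linked pair, lie head to head with 1308 bases between them and differed in ASCs. Col4a5 was at 6791, 5981 and 7968 in ASCs, 2567 and 2646 in FAPs and 956, 860.2 and 922 in injured FAPs. ASCs were highest and injured FAPs lowest. It was 2.65-fold higher in ASCs than in FAPs (log2 fold change 1.40 ± 0.12 (SE), limma adjusted p = 6.58e-06), the largest ASC excess of a called collagen with a mean of at least 100 (0.83 on scaling to the library total and 0.90 under quantile normalization, both called), and fell 2.86-fold in injured FAPs (log2 fold change −1.51 ± 0.12 (SE), limma adjusted p = 3.46e-06). Against ASCs injured FAPs were 7.57-fold lower (log2 fold change −2.91 ± 0.11 (SE), limma adjusted p = 2.38e-08). Col4a6 was at 278, 284 and 328 in ASCs, 341 and 489 in FAPs and 99.6, 79.05 and 82.4 in injured FAPs. Here ASCs were below FAPs in all libraries without passing the test (log2 fold change −0.46), but they were called lower on scaling to the library total (−1.03, limma adjusted p = 0.00104) and without FAP replicate 1 (−0.72), where FAP replicate 2 is the only FAP library. Injured FAPs were lowest (log2 fold change −2.23 against FAPs). The ratio of Col4a5 to Col4a6 per kb was 24.8, 21.4 and 24.7 in ASCs, 7.65 and 5.50 in FAPs and 9.76, 11.1 and 11.4 in injured FAPs, and no groups overlapped.

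Markers of vessel wall cells were measured beside the basement membrane genes. The 7 mural markers summed to 1363, 979.7 and 1016 in ASCs, 20063 and 17685 in FAPs and 8783, 8501 and 8844 in injured FAPs, and to 81627 in the CD31+CD45+ library. 7 of 7 were lower in ASCs than in FAPs and 6 of 7 lower in injured FAPs than in FAPs. Relative to ASCs 5 were higher in injured FAPs and 1, Kcnj8 (−0.88), lower, which was not called without injured FAP replicate 1 (−0.75) or on scaling to the library total (−0.19). The leading gene was Des in ASCs, Rgs5 or Acta2 in FAPs and Cspg4 in injured FAPs, and none was at 0. Of the 8 endothelial markers 7 were tested, of which 4 were lower and 2 higher in ASCs than in FAPs, and 3 lower and 2 higher in injured FAPs than in FAPs. In both cases the higher ones were Emcn and Cldn5, which are listed at 0 in both FAP libraries. Whether a filter or other step before deposit set these zeros is not given in the sources used here. Emcn and Cldn5 met the filter on low values without the FAP libraries, so their calls are a description only. Without FAP replicate 1, Pecam1, listed at 0 in FAP replicate 2, was also called higher in both cases, and without FAP replicate 2 it was called lower in ASCs (−1.59). In injured FAPs 4, Cdh5, Emcn, Tie1 and Egfl7, were higher than in ASCs and 0 lower, or 1, Kdr (−0.80), without ASC replicate 3. Emcn, with a mean under 10 in ASCs too, met the filter through the injured FAP libraries, so its call against ASCs is also a description only. The part of these mural and endothelial markers in the values of Col4a1 to Col4a6 was not tested.

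**Figure D3:**
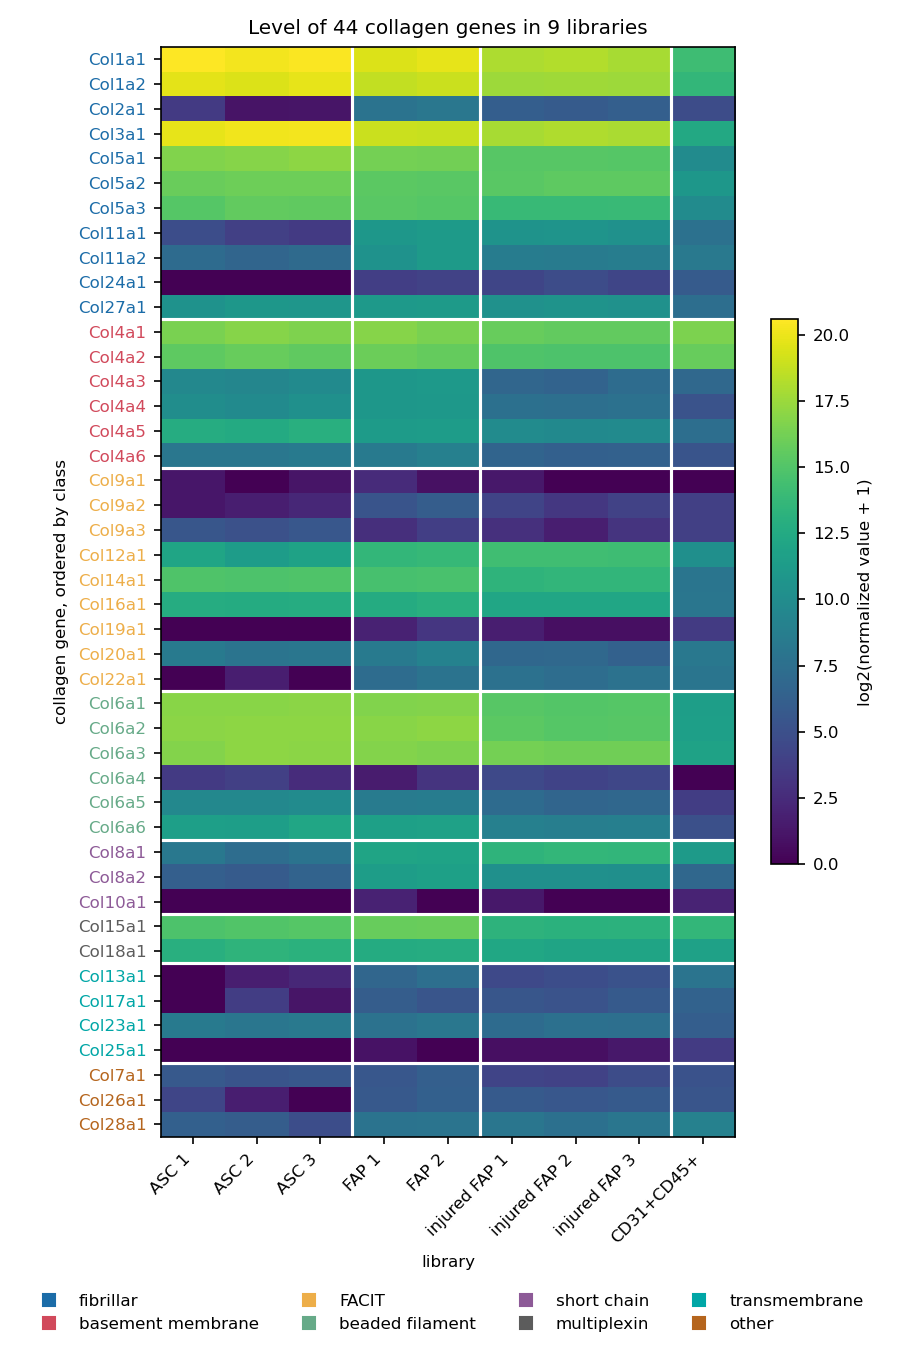
Heatmap of log2(normalized value + 1) for the 44 collagen genes, ordered from top to bottom by class, in the 9 libraries from left to right. Col1a1, Col1a2 and Col3a1 are brightest in the ASC libraries, Col11a1, Col8a1, Col8a2 and Col22a1 are darker in ASCs than in the muscle libraries, and Col4a1 and Col4a2 are the brightest genes of the CD31+CD45+ library.

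Type VI collagen forms beaded filaments from Col6a1, Col6a2 and a longer chain, usually Col6a3. Col6a1 was at 122927, 120651 and 130866 in ASCs, 102759 and 112980 in FAPs and 38009, 33348 and 35925 in injured FAPs. ASCs lay above FAPs without a call (log2 fold change 0.21 ± 0.14 (SE), limma adjusted p = 0.21), with −0.36 on scaling to the library total and −0.43 under quantile normalization. Injured FAPs were 3.02-fold below FAPs (log2 fold change −1.59 ± 0.14 (SE), limma adjusted p = 5.43e-06) and 3.49-fold below ASCs (log2 fold change −1.80 ± 0.12 (SE), limma adjusted p = 7.24e-07). The difference from ASCs was −1.11 on scaling to the library total and −0.69 under quantile normalization, both called.

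Col6a2 was at 133933, 134131 and 136438 in ASCs, 126167 and 140974 in FAPs and 41808, 36063 and 37805 in injured FAPs, with ASCs and FAPs overlapping and injured FAPs below. It fell 3.46-fold in injured FAPs against FAPs (log2 fold change −1.79 ± 0.14 (SE), limma adjusted p = 3.15e-06). Against ASCs the fold was 3.50 (log2 fold change −1.81 ± 0.13 (SE), limma adjusted p = 8.7e-07), with −1.11 and −0.70 under the same scalings as for Col6a1, again called. ASCs against FAPs did not pass (log2 fold change 0.016 ± 0.14 (SE), limma adjusted p = 0.932), with −0.064 without FAP replicate 1, −0.55 on scaling to the library total and −0.63 under quantile normalization. Col6a1 and Col6a2 lie 85161 bases apart on chromosome 10, and their ratio per kb was 1.04, 1.02 and 1.09 in ASCs, 0.924 and 0.910 in FAPs and 1.03, 1.05 and 1.08 in injured FAPs.

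Col6a3 differed less between FAP groups. It was at 109044, 140631 and 131954 in ASCs, 111635 and 100990 in FAPs and 78349, 70318 and 69894 in injured FAPs. Injured FAPs lay below FAPs in every library, but the difference missed the fold threshold (log2 fold change −0.55 ± 0.16 (SE), limma adjusted p = 0.0136), and passed it without FAP replicate 2 (−0.62) or injured FAP replicate 1 (−0.60), while under quantile normalization it was −0.032 and not called. Against ASCs Col6a3 was called lower in injured FAPs (log2 fold change −0.80 ± 0.15 (SE), limma adjusted p = 0.000728), though −0.099 on scaling to the library total and 0.32 under quantile normalization. ASCs against FAPs did not pass (log2 fold change 0.25 ± 0.16 (SE), limma adjusted p = 0.207), with −0.31 and −0.36 under the same scalings. The ratio of Col6a3 to Col6a2 per kb was 0.375, 0.483 and 0.445 in ASCs, 0.407 and 0.330 in FAPs and 0.863, 0.898 and 0.851 in injured FAPs, with all injured FAP libraries above all others of these groups.

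Col6a4, Col6a5 and Col6a6 are related chains that lie in a row on chromosome 9. Col6a6 was at 3205, 2998 and 4729 in ASCs, 3377 and 3511 in FAPs and 491, 443 and 467 in injured FAPs. Injured FAPs stood apart, 7.38-fold below FAPs (log2 fold change −2.88 ± 0.17 (SE), limma adjusted p = 7.07e-07) and 7.81-fold below ASCs (log2 fold change −2.93 ± 0.15 (SE), limma adjusted p = 1.3e-07). ASCs and FAPs overlapped (log2 fold change 0.052 ± 0.17 (SE), limma adjusted p = 0.811, not called), with −0.15 without ASC replicate 3, −0.52 on scaling to the library total and −0.38 under quantile normalization.

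Col6a5 was at 765, 780.4 and 948 in ASCs, 369.9 and 391 in FAPs and 144, 102 and 114 in injured FAPs. ASCs were highest and injured FAPs lowest. It was 2.18-fold higher in ASCs than in FAPs (log2 fold change 1.12 ± 0.17 (SE), limma adjusted p = 0.000266), or 0.55 and not called on scaling to the library total. It fell 3.16-fold after injury (log2 fold change −1.67 ± 0.17 (SE), limma adjusted p = 1.47e-05), and injured FAPs were below ASCs (log2 fold change −2.79 ± 0.15 (SE), limma adjusted p = 1.71e-07). Col6a4 went the other way at a low level, with 10.5, 13.6 and 5.02 in ASCs, 1.90 and 7.53 in FAPs and 21.97, 17.05 and 19.8 in injured FAPs. The rise after injury (log2 fold change 2.04 ± 0.58 (SE), limma adjusted p = 0.00991), from a mean under the filter of 10, was lost without FAP replicate 1 (1.27, limma adjusted p = 0.101).

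FACIT chains decorate fibrils and tie them to other matrix. Col14a1, common in skin and tendon, had the highest group mean per kb of this class in ASCs, FAPs and injured FAPs. In injured FAPs it was close to Col12a1 (means of 1794 and 1667 per kb), and the libraries overlapped. The value of Col14a1 was 31423, 29203 and 30661 in ASCs, 24781 and 26465 in FAPs and 10796, 12146 and 11818 in injured FAPs. ASCs were highest and injured FAPs lowest, without overlap. It fell 2.21-fold in injured FAPs against FAPs (log2 fold change −1.15 ± 0.11 (SE), limma adjusted p = 8.61e-06) and was 2.63-fold below ASCs there (log2 fold change −1.39 ± 0.10 (SE), limma adjusted p = 7.4e-07), or −0.70 on scaling to the library total and −0.63 under quantile normalization, both called. ASCs lay above FAPs without a call (log2 fold change 0.25 ± 0.11 (SE), limma adjusted p = 0.0669), with −0.32 on scaling to the library total and −0.56 under quantile normalization.

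Col12a1, which binds type I fibrils in tissue under mechanical load, had the opposite order. Its level was 4280, 2610 and 3749 in ASCs, 12749 and 13836 in FAPs and 19536, 19262 and 18771 in injured FAPs. Injured FAPs were above FAPs in every library and ASCs were far below, without overlap. The difference after injury fell short of the fold threshold (log2 fold change 0.53 ± 0.18 (SE), limma adjusted p = 0.0212), and it was called on scaling to the library total (0.66) and under quantile normalization (0.58). In ASCs Col12a1 was 3.75-fold below FAPs (log2 fold change −1.94 ± 0.18 (SE), limma adjusted p = 8.18e-06), and injured FAPs were 5.41-fold above ASCs (log2 fold change 2.47 ± 0.16 (SE), limma adjusted p = 4.54e-07).

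Col22a1, a collagen of the junction between muscle and tendon, was at 0, 2.27 and 0 in ASCs, 154 and 223 in FAPs and 200.1, 163 and 219.7 in injured FAPs. ASCs were near 0, and FAPs and injured FAPs overlapped. Only 2 reads were seen over the 3 ASC libraries, so the ratio of FAPs to ASCs is 249.7 with a 95% counting interval from 69.1 to 2061 (log2 fold change −6.97 ± 0.50 (SE), limma adjusted p = 1.75e-06). The ratio of injured FAPs to ASCs was 257 with a 95% counting interval from 71.2 to 2123 (log2 fold change 7.03 ± 0.44 (SE), limma adjusted p = 4.42e-07). These 2 reads came from ASC replicate 2. With a mean under 10 in ASCs, Col22a1 met the filter through the muscle libraries, so its tests against ASCs are a description only. Injured FAPs against FAPs did not pass (log2 fold change 0.056 ± 0.50 (SE), limma adjusted p = 0.928) and gave −0.21 without FAP replicate 1 and −0.038 without injured FAP replicate 3.

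Col16a1, another FACIT gene, was at 6944, 6345 and 6922 in ASCs, 6423 and 8133 in FAPs and 4683, 4603 and 4678 in injured FAPs. It was lowest in injured FAPs and fell against FAPs (−0.63), but with −0.46 without FAP replicate 2 and −0.50 on scaling to the library total this was not called. ASCs and FAPs overlapped for Col16a1 (−0.10, not called), but ASCs were called lower on scaling to the library total (−0.67) and under quantile normalization (−0.71). Col20a1 lay between 83.9 and 552 and fell in injured FAPs against FAPs (log2 fold change −2.06). Its call in ASCs against FAPs (−0.65) was lost without FAP replicate 2 (−0.35), ASC replicate 2 (−0.52), ASC replicate 3 (limma adjusted p = 0.0988), injured FAP replicate 1 (limma adjusted p = 0.0616) or injured FAP replicate 2 (limma adjusted p = 0.0525), and under quantile normalization (−0.60, limma adjusted p = 0.0562).

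Col9a2, which was at most 65.9, was lower in ASCs than in FAPs (−3.97), and its fall after injury (−1.83) was lost without FAP replicate 2 (−1.46, limma adjusted p = 0.0921). Col9a3, at most 46.4, was higher in ASCs than in FAPs (2.11), where its mean was under the filter of 10, and this call was lost without FAP replicate 1 (1.57, limma adjusted p = 0.0595). Col9a3 shares 234 exon bases with Tcfl5 on the opposite strand, and the strand setting of the counting is not given in the sources used here, so their reads there cannot be told apart. Col9a2, with a mean under 10 in ASCs, and Col9a3 met the filter through the group where they were higher. Their calls in ASCs against FAPs are a description only. Col9a1 and Col19a1 did not pass the filter, with values up to 4.75 and 8.47 in the 8 libraries.

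Type VIII collagen, a short chain collagen of vessel walls and other sheet-like matrix, held the collagen gene that rose and had a mean of at least 100. Col8a1 was at 292, 163 and 222 in ASCs, 4062 and 3954 in FAPs and 10813, 12289 and 12013 in injured FAPs. Injured FAPs were highest, FAPs lay between and ASCs were lowest, without overlap. It rose 2.92-fold in injured FAPs against FAPs (log2 fold change 1.54 ± 0.19 (SE), limma adjusted p = 6.29e-05) and was 17.7-fold lower in ASCs than in FAPs (log2 fold change −4.18 ± 0.19 (SE), limma adjusted p = 1.27e-07). Injured FAPs were 51.8-fold above ASCs (log2 fold change 5.73 ± 0.17 (SE), limma adjusted p = 7.26e-09). These 3 calls held under each alternative run for them.

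Its partner chain Col8a2 was at 73.8, 60.03 and 92.9 in ASCs, 2832 and 3361 in FAPs and 1252, 1273 and 1181 in injured FAPs. FAPs were highest and ASCs lowest. It fell 2.51-fold after injury (log2 fold change −1.32 ± 0.17 (SE), limma adjusted p = 7.67e-05) while Col8a1 rose, and was 40.97-fold lower in ASCs than in FAPs (log2 fold change −5.36 ± 0.17 (SE), limma adjusted p = 1.96e-08). Injured FAPs were above ASCs (log2 fold change 4.03 ± 0.15 (SE), limma adjusted p = 2.48e-08). The ratio of Col8a1 to Col8a2 per kb was 3.36, 2.30 and 2.03 in ASCs, 1.22 and 0.998 in FAPs and 7.32, 8.19 and 8.63 in injured FAPs. FAPs were lowest and injured FAPs highest, without overlap. Col10a1, the other short chain gene, did not pass the filter and its value did not exceed 2.85 in the 8 libraries.

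The promoter of Col8a1 is shown as that of the member that rose with a mean of at least 100, at chr16:57754688-57754987, minus strand, from the same RefSeq table and with the same capitals.
Col8a1: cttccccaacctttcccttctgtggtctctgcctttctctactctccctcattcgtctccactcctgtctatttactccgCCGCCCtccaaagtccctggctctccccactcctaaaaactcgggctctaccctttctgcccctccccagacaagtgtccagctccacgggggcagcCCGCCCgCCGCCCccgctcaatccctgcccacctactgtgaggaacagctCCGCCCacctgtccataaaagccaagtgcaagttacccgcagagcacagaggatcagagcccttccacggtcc
It held 4 GGGCGG matches, all on the opposite strand and from 170 to 23 bases before the start, and neither CCAAT nor TATAAA.

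The multiplexins Col15a1 and Col18a1 carry a collagenous core with many interruptions and are found at basement membranes, and Col18a1 is the precursor of endostatin. Col15a1 was at 28230, 32112 and 35918 in ASCs, 57295 and 59112 in FAPs and 10038, 8766 and 9532 in injured FAPs. FAPs were highest and injured FAPs lowest, without overlap. It fell 6.16-fold after injury (log2 fold change −2.63 ± 0.13 (SE), limma adjusted p = 2.99e-07) and was 1.81-fold lower in ASCs than in FAPs (log2 fold change −0.87 ± 0.13 (SE), limma adjusted p = 0.000233), with −1.43 on scaling to the library total and −1.48 under quantile normalization. In injured FAPs it was 3.40-fold below ASCs (log2 fold change −1.76 ± 0.11 (SE), limma adjusted p = 5.38e-07), with −1.06 and −1.02 under these scalings, both called.

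Col18a1 was at 8041, 10576 and 8864 in ASCs, 6622 and 6627 in FAPs and 4766, 4029 and 4167 in injured FAPs. Injured FAPs were lowest, 1.53-fold below FAPs (log2 fold change −0.62 ± 0.13 (SE), limma adjusted p = 0.00166), a call lost without injured FAP replicate 2 (−0.57), in edgeR (−0.57) and on scaling to the library total (−0.49). ASCs were above FAPs without a call (log2 fold change 0.46 ± 0.13 (SE), limma adjusted p = 0.0103), with −0.11 on scaling to the library total and −0.23 under quantile normalization. Injured FAPs were also below ASCs (log2 fold change −1.08 ± 0.11 (SE), limma adjusted p = 1.54e-05), with −0.62 under quantile normalization and −0.38, no longer called, on scaling to the library total.

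The transmembrane collagens and the 3 genes of no other class did not exceed 345 in the 8 libraries. Col13a1 and Col17a1, which sit in the membrane at cell attachment sites, were at 108 and 179 and at 65.6 and 42.3 in FAPs, and did not exceed 3.77 and 12.5 in ASCs. Both were called lower in ASCs than in FAPs (log2 fold change −5.81 and −4.11). With means under 10 in ASCs, they met the filter through the muscle libraries, so these calls are a description only. Col13a1 also fell in injured FAPs against FAPs (−2.26), although not without FAP replicate 2 (−1.90, limma adjusted p = 0.0807). Col23a1 was between 142 and 345 in the 8 libraries and was called lower in injured FAPs against ASCs (−0.87, but −0.17 on scaling to the library total) and in neither other comparison. Against FAPs its value in injured FAPs (−0.53) was called without FAP replicate 1 (−0.71) or injured FAP replicate 2 (−0.63).

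Col7a1, which anchors epithelium to stroma, was between 15.5 and 74.3 and fell in injured FAPs against FAPs (−1.58). It was also lower in injured FAPs than in ASCs (−1.22), or −0.55 and not called on scaling to the library total, where ASCs were called lower than FAPs (−0.91) though not before scaling (−0.35). Col26a1 and Col28a1 were lower in ASCs than in FAPs (−4.01 and −2.13) and overlapped between FAPs and injured FAPs, with values up to 76.2 and 266 in the 8 libraries. Col26a1 had a mean under 10 in ASCs and met the filter through the muscle libraries, so its call is a description only. Col25a1 did not pass the filter and did not exceed 1.53 in the 8 libraries.

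Per kb of transcript, which allows levels of different genes to be compared, Col1a1, Col3a1 and Col1a2 came first in ASCs and FAPs. In ASCs Col1a1 led with 237584 ± 30656 per kb (SD, n = 3), followed by Col3a1 (196263 ± 26899) and Col1a2 (158650 ± 17351), and the ranges of neighbours in this order overlapped. In FAPs Col1a1 was at 137706 ± 20447 per kb (SD, n = 2), above Col3a1 at 87010 ± 2880 and Col1a2 at 86106 ± 8685, which overlapped. In injured FAPs Col3a1 (45941 ± 3928 per kb, SD, n = 3) and Col1a1 (45695 ± 4155) overlapped and Col1a2 lay below at 36607 ± 1170. Col6a1, Col6a2 and Col4a1 took the next 3 places in each of these groups. Among the 3 stromal groups Col8a1 was in the first 12 in injured FAPs, at rank 12 with 2291 ± 154 per kb, and not in ASCs or FAPs.

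Chains that assemble into 1 trimer kept their ratio to different degrees. The ratio of Col1a1 to Col1a2 per kb was 1.62, 1.45 and 1.42 in ASCs, 1.54 and 1.65 in FAPs and 1.27, 1.31 and 1.16 in injured FAPs, so injured FAPs were lowest of the 8 libraries. That of Col5a1 to Col5a2 was 1.40, 1.38 and 1.57 in ASCs, 1.45 and 1.48 in FAPs and 0.732, 0.665 and 0.619 in injured FAPs, again with all injured FAP libraries below the ASC and FAP libraries. Ratios of Col11a1 to Col11a2 ran from 0.152, 0.103 and 0.0584 in ASCs through 1.05 and 0.795 in FAPs to 3.01, 3.24 and 2.64 in injured FAPs. These ratios do not depend on the size factors, but they use the longest coding transcript of each gene as its length.

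**Figure D4:**
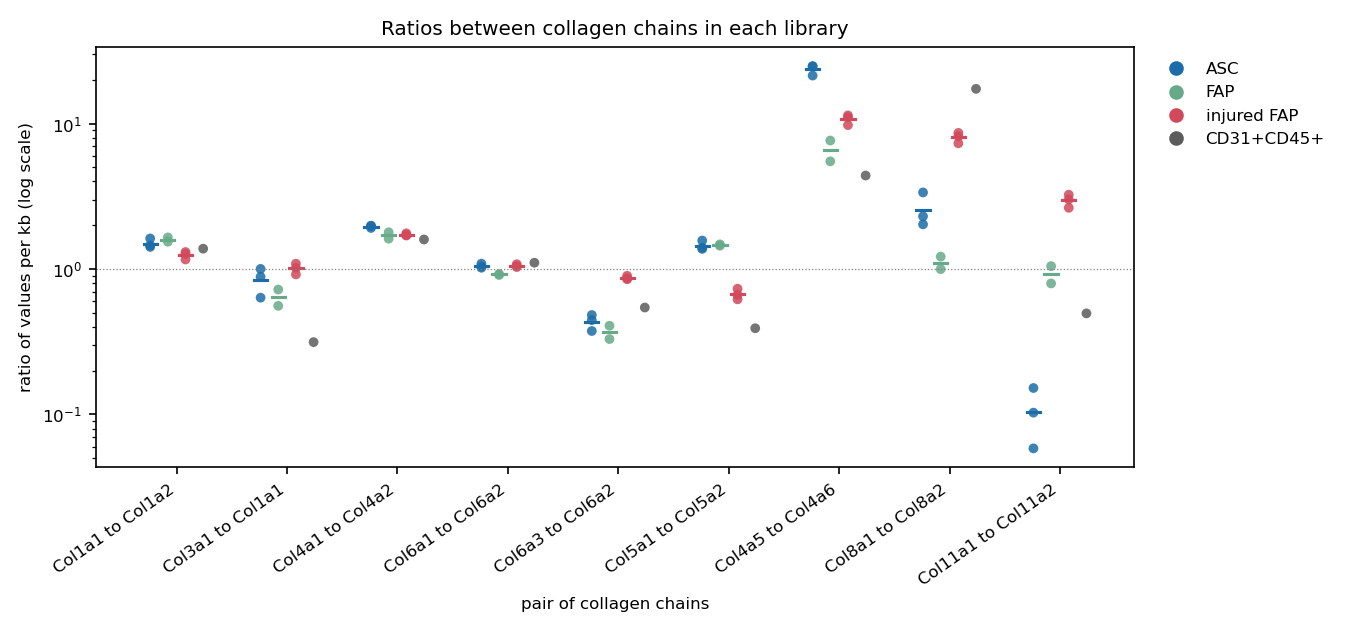
Each dot is the ratio of 2 collagen chains, per kb of transcript, in 1 library (log axis), and short lines are group means. Ratios of Col4a1 to Col4a2 and of Col6a1 to Col6a2 lie within 1.60 to 1.99 and 0.910 to 1.10 in the 9 libraries, while those of Col8a1 to Col8a2 and Col11a1 to Col11a2 separate the ASC, FAP and injured FAP groups.

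Neighbouring collagen genes gave mixed pictures in injured FAPs against FAPs. Col3a1 and Col5a2 lie tail to tail on chromosome 1 with 24614 bases between them, and their log2 fold changes were −0.92 and 0.075 (0.37 for Col3a1 and 0.56 for Col5a2 under quantile normalization). For Col6a2 and Col6a1 they were −1.79 and −1.59. Col6a5 and Col6a4, 28810 bases apart, had −1.67 and 2.04. Col6a4 had a mean under 10 in FAPs and met the filter through the injured FAP libraries, so its value is a description only. Of the head to head pairs, Col4a4 and Col4a3 had −3.34 and −4.12, and Col4a6 and Col4a5 had −2.23 and −1.51. Col4a1 and Col4a2 had −0.98 and −0.995, but −0.42 and −0.55 under quantile normalization. 13 of the 44 genes share some exon bases with another annotated gene, and in none was this over 10% of the exon bases.

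Genes that act on collagen chains were described from a list of 36 genes for hydroxylation, folding, secretion, processing and crosslinking. In injured FAPs against FAPs 9 rose and 11 fell, with a median log2 fold change of −0.054, beside 24.9% and 27.7% and a median of −0.051 over all genes. P4ha3, a subunit of the enzyme that hydroxylates proline in collagen, was at 85.6, 104 and 60.3 in ASCs, 354 and 231 in FAPs and 1271, 1268 and 1204 in injured FAPs. It rose in injured FAPs (log2 fold change 2.12 ± 0.23 (SE), limma adjusted p = 2.63e-05), and every injured FAP library was above every other. Tll1, a proteinase that removes the C-terminal propeptide, was at 287, 355 and 310.1 in ASCs, 156 and 187 in FAPs and 476, 479.7 and 535 in injured FAPs and rose as well (log2 fold change 1.53 ± 0.15 (SE), limma adjusted p = 1e-05). The other 7 that rose were Loxl3 (1.04), Lox (0.96), Plod2 (0.86), P4hb (0.81), Plod3 (0.77), Colgalt1 (0.77) and Loxl1 (0.59, but 0.52 and not called without injured FAP replicate 1). Genes with the same kinds of function also fell, namely P4ha2 (−0.72), a subunit that hydroxylates proline like P4ha3, P3h3 (−0.63, but −0.57 without FAP replicate 2 and −0.50 on scaling to the library total, neither called), of the prolyl 3-hydroxylase family, and Loxl2 (−0.64, but −0.51 and not called on scaling to the library total), a crosslinking enzyme like Lox.

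Among the others that fell, Colgalt2, a galactosyltransferase of hydroxylysine, was at 108, 95.1 and 166 in ASCs, 1194 and 1136 in FAPs and 209, 182 and 214 in injured FAPs (log2 fold change −2.53 ± 0.22 (SE), limma adjusted p = 4.88e-06). Creb3l1, a transcription factor that activates collagen genes in bone, was at 15841, 13117 and 14375 in ASCs, 11696 and 12750 in FAPs and 5659, 5876 and 4647 in injured FAPs (log2 fold change −1.19 ± 0.13 (SE), limma adjusted p = 2.35e-05). FAPs and ASCs were above injured FAPs in every library for Creb3l1, and FAPs stood above the other stromal libraries for Colgalt2. Adamts2 (−1.18), Pcolce (−1.01), Adamts3 (−0.89), Pcolce2 (−0.88) and Bmp1 (−0.83), which act on propeptides, fell as well, as did Tll2 (−2.44), a proteinase of the same family as Bmp1 and Tll1 that was at 32.9, 13.6 and 15.1 in ASCs, 20.9 and 45.2 in FAPs and 4.71, 3.10 and 7.63 in injured FAPs. With a mean under 10 in injured FAPs, Tll2 met the filter through the ASC and FAP libraries, so its fall is a description only. Tll1 rose, as given above, and Adamts14, which acts on propeptides too, did not pass (0.49, but 0.86 and called without FAP replicate 2). Serpinh1, the collagen chaperone, was at 77611, 83317 and 78204 in ASCs, 57353 and 54825 in FAPs and 67368, 64537 and 65035 in injured FAPs and did not pass (log2 fold change 0.23 ± 0.13 (SE), limma adjusted p = 0.14), though it was called higher under quantile normalization (0.66).

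In ASCs against FAPs 11 of the 36 were higher and 5 lower (2 and 8 on scaling to the library total, 3 and 9 under quantile normalization), with a median of 0.26. These were 30.6% and 13.9% of the list, beside 23.4% higher and 23.8% lower and a median of 0.0049 over all genes. P3h2, which hydroxylates proline at another position, was at 30.3, 66.8 and 16.3 in ASCs, 799 and 866 in FAPs and 814, 862 and 706 in injured FAPs and far lower in ASCs (log2 fold change −4.65 ± 0.42 (SE), limma adjusted p = 8.73e-06). Adamts3, which removes the N-terminal propeptide, was at 136, 138 and 134 in ASCs, 1394 and 1550 in FAPs and 785, 835 and 755 in injured FAPs and also lower in ASCs (log2 fold change −3.42 ± 0.11 (SE), limma adjusted p = 2.11e-08), as was Colgalt2 (−3.28). Pcolce2, an enhancer of C-propeptide removal, had the largest ASC excess of the list, at 19079, 13929 and 17024 in ASCs, 4107 and 4421 in FAPs and 2452, 2183 and 2308 in injured FAPs (log2 fold change 1.96 ± 0.13 (SE), limma adjusted p = 1.21e-06). ASCs stood apart from both FAP groups for P3h2, Adamts3 and Pcolce2. In injured FAPs against ASCs 8 were higher, led by P3h2 (4.57), P4ha3 (3.92) and Adamts3 (2.53), and 12 lower, led by Pcolce2 (−2.84), with 14 and 7 on scaling to the library total. That is 22.2% and 33.3% of the list, beside 25% higher and 25.8% lower over all genes, with a median of −0.32 for the list and 0.021 for all genes.

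Of 10 collagen receptor genes 8 passed the filter, and Lair1 and Gp6 did not. In injured FAPs against FAPs 4 fell, the integrin subunits Itga10 (−1.93), Itga11 (−1.71), Itga1 (−1.25) and Itga2 (−0.77). Itgb1, their shared beta subunit, rose (0.62), though not without FAP replicate 2 (0.54) or injured FAP replicate 3 (0.57). Over all genes 27.7% were lower and 24.9% higher, against 50% and 12.5% of the 8 receptors. Itga11 was at 6039, 4255 and 6969 in ASCs, 5690 and 7104 in FAPs and 1988, 1924 and 1920 in injured FAPs, with ASCs and FAPs overlapping and injured FAPs below. Itga10 was at 76.4, 57.8 and 96.7 in ASCs, 453 and 539 in FAPs and 141, 111 and 137 in injured FAPs, highest in FAPs and lowest in ASCs.

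In ASCs against FAPs Itga10 (−2.70) and Itga1 (−2.55) were lower and Ddr2, a receptor tyrosine kinase for fibrillar collagen, was higher (1.34), at 33121, 23711 and 26837 in ASCs, 11404 and 10479 in FAPs and 13299, 12642 and 13518 in injured FAPs. ASCs were highest and FAPs lowest, and the call was lost under quantile normalization (0.56). The 2 lower and 1 higher of 8 compare with 23.8% and 23.4% over all genes. Injured FAPs against ASCs gave 2 higher genes, Itga1 (1.30) and Itga10 (0.77, but 0.58 without ASC replicate 2 and 0.54 under quantile normalization, neither called). The 2 lower genes were Itga11 (−1.54) and Ddr2 (−1.07, but −0.37 on scaling to the library total and −0.28 under quantile normalization, neither called). These receptor shares, 25% in each direction, were close to the 25% higher and 25.8% lower over all genes.

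**Figure D5:**
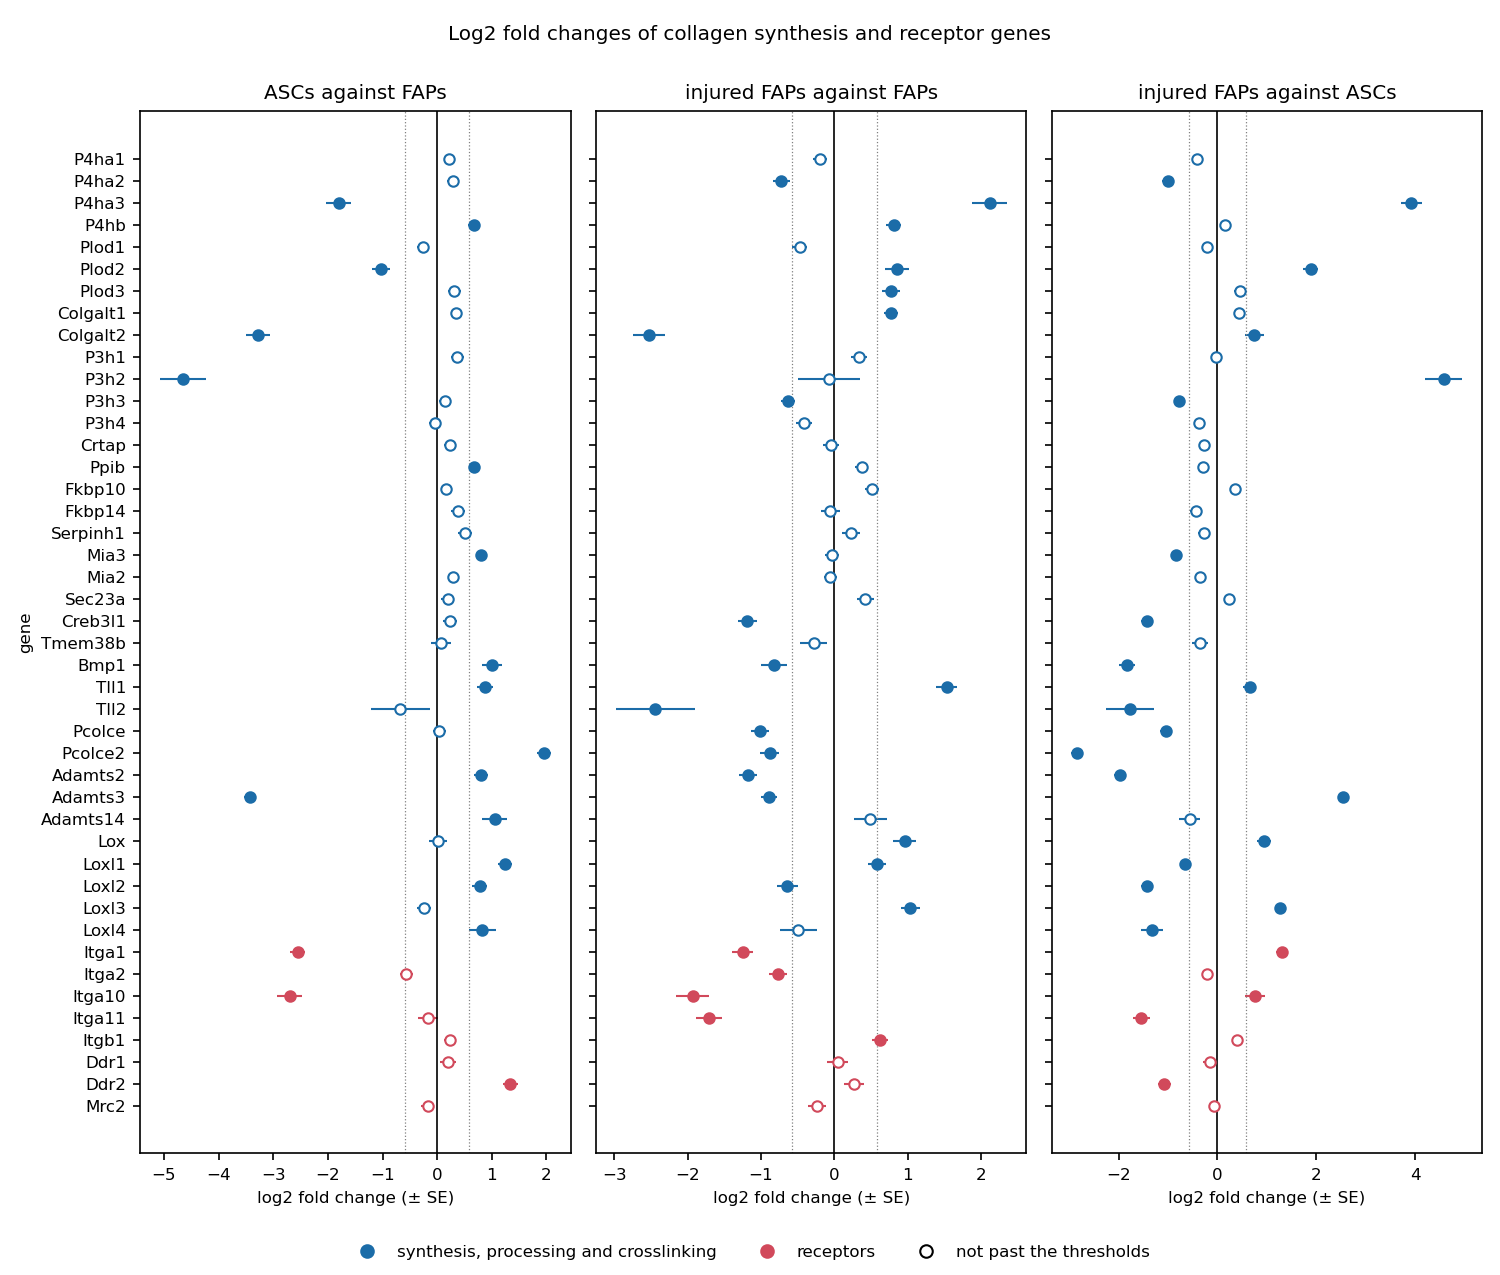
Log2 fold changes with standard errors of the 36 collagen synthesis genes (blue) and the 8 receptor genes tested (red) in the 3 comparisons, from the same limma fit, where filled points passed both thresholds. In injured FAPs against FAPs P4ha3 (2.12) and Tll1 (1.53) lie farthest right and Colgalt2 (−2.53) farthest left.

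With a single CD31+CD45+ library, its values carry no test. 21 of the 44 genes (47.7%) were lower there than in all 8 other libraries, as were 19.0% of the 19530 genes of the table that are above 0 in any library. Col1a1 was at 18995 from 12103 reads (95% Poisson interval 18658 to 19336), or 7.01% of the injured FAP mean, and Col3a1 at 5600 from 3568 reads (95% Poisson interval 5417 to 5787), or 2.19%. By contrast Col4a1 was at 93877 from 59816 reads (95% Poisson interval 93126 to 94632) and Col4a2 at 57320 from 36523 reads (95% Poisson interval 56734 to 57911), within the range of the ASC and FAP libraries. Per kb these were the highest collagens of the library, at 14191 and 8887, before Col1a1 at 3203 and Col15a1 at 2379. Col15a1 and Col18a1 were at 12303 and 3396, and Col4a5 at 169, so that the ratio of Col4a1 to Col4a5 per kb was 547 against 12.2 to 58.9 in the 8 other libraries.

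Markers of further cell types are given beside the collagens with low values. The 6 muscle fibre markers summed to 157, 108 and 144 in ASCs, 718 and 850.5 in FAPs and 249, 243 and 196 in injured FAPs, led by Tnnt3 or Acta1, and to 2853 in CD31+CD45+ cells, with 5 of 5 tested lower in ASCs than in FAPs and 4 lower in injured FAPs than in FAPs (2 without FAP replicate 1). Against ASCs 3 were higher in injured FAPs and 0 lower, or 1, Tnnt3, without ASC replicate 2 and under quantile normalization. Acta1, Myh1, Ckm and Mb had means under 10 in ASCs and met the filter through the muscle libraries, so these counts are a description only. The 5 satellite cell markers summed to 2801, 2767 and 2660 in ASCs, 1121 and 1081 in FAPs and 4453, 4262 and 4096 in injured FAPs and to 3009 in CD31+CD45+ cells. Vcam1 made up most of the sum in every library, so the sum follows this gene. Pax7 went the other way after injury, at 31.4 and 65.9 in FAPs and 11.8, 10.8 and 5.34 in injured FAPs, and was at 0 in all ASC libraries. Of 3 tested 2 were lower and 1 higher in ASCs than in FAPs, and all 3 were higher in injured FAPs than in ASCs. In injured FAPs against FAPs 1, Pax7 (−2.24), was lower and 1, Vcam1 (2.07), higher. Pax7 and Myod1, with means under 10 in ASCs, met the filter through the muscle libraries, so the satellite cell counts are a description too. The count lower in ASCs than in FAPs was 1 without either FAP replicate and under quantile normalization, and that in injured FAPs against FAPs was 0 without FAP replicate 2. The 5 adipocyte markers summed to 121, 109 and 119 in ASCs, 15.2 and 21.6 in FAPs and 6.28, 6.97 and 1.53 in injured FAPs and to 15.7 in CD31+CD45+ cells, led by Plin1 or Adipoq in the 8 stromal libraries, with Retn at 0 in all FAP and injured FAP libraries. Of 2 tested 2 were higher in ASCs than in FAPs and 1 lower in injured FAPs than in FAPs, and 2 were lower in injured FAPs than in ASCs. The genes tested, Adipoq and Plin1, had means under 10 in FAPs and injured FAPs. They met the filter through ASCs, so these counts are a description only. The part of these cells in the collagen values was not tested.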

How the data were processed

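The authors aligned the reads with HISAT2, assigned them to genes with featureCounts (Subread) and used DESeq2, with FastQC for quality, per the methods and the submitters' processing notes. What the authors deposited is 1 signal value for each gene in each library. Undoing a size factor turned 100% of the values of each of the 9 libraries into whole reads (tolerance 0.001). The strand setting is not given in the sources used here. Of the 26214 genes listed, 6684 are 0 throughout and 24918 matched GENCODE M21 (GRCm38), the source of positions and transcript lengths.

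log2(value + 1) was fitted with limma 3.58.1 in R 4.3.3, with a trend in the prior variance, 1 mean for each of the ASC, FAP and injured FAP groups (8 libraries) and 5 residual degrees of freedom. P-values were adjusted by the Benjamini-Hochberg method over the 13601 genes whose mean reached 10, and measure only the spread between these pooled libraries. Fold changes are on the log2(value + 1) scale, which understates those of genes with low values, and linear folds are ratios of group means. Shares were compared by exact two-sided permutation tests. As alternatives on the recovered reads, edgeR 4.0.16 called 6450, 7303 and 7000 genes in ASCs against FAPs, in injured FAPs against FAPs and in injured FAPs against ASCs, in this order, and DESeq2 1.42.0 called 6412, 7227 and 6865. All 3 methods were tested on simulated data. Other alternatives were the pseudocount, the filter, quantile normalization, scaling to the library total, the thresholds, the groups in the fit, a replicate block and each library left out.

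The collagen genes and the lists were chosen with earlier results of these data known. Values in every library and full statistics are given for 15 chains named by symbol and, per comparison, for the 4 largest rises and 4 largest falls among called collagens with a mean of at least 100. Of the synthesis and receptor lists, up to 4 called genes with the largest change and the same mean were taken. The other collagen, synthesis and receptor genes were picked for naming once their values had been seen, to account for every collagen gene and for small counts. The CD31+CD45+ library entered no fit. The result of 1 further marker list is not reported here.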

Additional observations from a re-analysis of the deposited data

Results flagged for a closer look

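In the CD31+CD45+ library, which entered no comparison, 7 collagen genes stood above all 8 ASC, FAP and injured FAP libraries with more than 3 reads, or 15.9% of the 44. Of the 19530 genes of the table that are above 0 in any library, 26.7% did. Col28a1 was at 534 from 340 reads (95% Poisson interval 478 to 593), where the highest other library was at 266. Col22a1 was at 254 from 162 reads (95% Poisson interval 217 to 297) against at most 223, Col13a1 at 243 from 155 reads (95% Poisson interval 206 to 285) against at most 179 and Col17a1 at 87.9 from 56 reads (95% Poisson interval 66.4 to 114) against at most 65.6. Col24a1 was at 59.6 from 38 reads (95% Poisson interval 42.2 to 81.9) against at most 26.3. Col25a1 and Col19a1 were both at 10.99 from 7 reads (95% Poisson interval 4.42 to 22.6), against at most 1.53 and 8.47. The intervals of Col22a1 and Col19a1 include the highest other value. Col10a1 was also highest there, but with 2 reads. None of these values has a replicate.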

How the results depend on the processing

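Of 128 results for single genes, 81 kept their direction and side of the threshold under every alternative run. Besides the reversals given here, leaving out 1 library in turn lost 13 calls at least once (23 losses over the 8 libraries) and added 2, quantile normalization lost 14 and added 3, scaling to the library total lost 15 and added 3, fitting only the groups compared lost 4, edgeR 2 and no filter 2, and dropping the fold threshold added 4.

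ASCs against FAPs: without the 2 collagen genes of highest value the difference in share was −0.48 percentage points. 8 collagen genes were higher, 3 under quantile normalization, 3 on the library total and 5 with 2 groups. Synthesis genes numbered 3 higher and 9 lower under quantile normalization, and 2 and 8 on the library total. Under quantile normalization and on the library total the values above 0 became, in this order, −0.56 and −0.32 for Col14a1, −0.23 and −0.11 for Col18a1, −0.53 and −0.36 for Col5a3, −0.43 and −0.36 for Col6a1, −0.63 and −0.55 for Col6a2, −0.36 and −0.31 for Col6a3, −0.38 and −0.52 for Col6a6. Quantile normalization alone turned Col1a2 to −0.12 and Col5a2 to −0.14, and edgeR turned Col6a2 to −0.032. With 1 library left out Col4a1 ranged from −0.24 to 0.16, Col6a2 from −0.064 to 0.096 and Col6a6 from −0.15 to 0.18.

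Injured FAPs against FAPs: 1 collagen gene was higher with a mean of at least 50, where fewer genes are tested, and 1 to 2 with 1 library left out. Col3a1 was 0.37 under quantile normalization, and Col22a1 ranged from −0.21 to 0.32 with 1 library left out. Injured FAPs against ASCs: 8 collagen genes were higher with a mean of at least 50, 14 synthesis genes were higher and 7 lower on the library total, and 19 lower without the fold threshold. Quantile normalization turned Col1a2 to 0, Col3a1 to 0.071, Col4a1 to 0.26, Col4a2 to 0.30, Col5a2 to 0.70 and Col6a3 to 0.32, and the library total turned Col5a2 to 0.15. The cause of these changes was not tested, except that quantile normalization gives equal values to equal ranks.

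Samples share replicate numbers but no source says that a number marks a shared animal or day. Deviations from group means correlated at −0.0545 to 0.0446 for the 7 pairs of libraries of equal number and at −0.123 to 0.123 for the others. The samples were treated as unpaired, but these values cannot exclude pairing. The deviations of the 2 FAP libraries mirror each other, so ASC replicate 1 gave 0.0446 with FAP replicate 1 and −0.0446 with FAP replicate 2. With a replicate block 7 collagen genes were higher and 16 lower for ASCs against FAPs, 2 higher and 27 lower for injured FAPs against FAPs, with 13 and 23 when ASCs were the reference. The block ended 2 calls, those of Col5a1 (0.577) and Col20a1 (−0.55, limma adjusted p = 0.113) in ASCs against FAPs, and Col6a6 there was −0.050. Where leaving out a FAP library leaves 1, that library is assumed to vary like the other groups. Depth limits the collagens near 3 reads, above all Col9a1, Col10a1, Col19a1 and Col25a1.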
